A study of Rattus norvegicus with 125 samples.

Results

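Of the 17144 gene symbols measured, 9 are described here, chosen by symbol and not by their values: the carbonic anhydrases Car2, Car4, Car12, Car14 and Car15, the bicarbonate transporters Slc4a2, Slc4a4 and Slc4a7, and the sodium/proton exchanger Slc9a3. All 9 are in the deposited table, as 11 RefSeq transcripts, of which 3 belong to Slc4a7. The tubule libraries came from segments dissected by hand from kidneys of male Sprague-Dawley rats weighing 200 to 250 g. The proximal tubule was divided into S1, S2 and S3, with 7 libraries of each. Descending thin limbs were sampled from short loops (SDL, 10 libraries) and from long loops, as an outer medullary part (LDLOM, 9 libraries) and an inner medullary part (LDLIM, 4 libraries). There were 7 libraries of the ascending thin limb (tAL), 7 of the medullary thick limb (mTAL) and 7 of the cortical thick limb (cTAL). Distal convoluted tubule (DCT, 8 libraries) and connecting tubule (CNT, 6 libraries) came next. The collecting duct was sampled in cortex (CCD, 11 libraries), outer medulla (OMCD, 7 libraries) and inner medulla (IMCD, 8 libraries). Glomeruli of adult male Sprague-Dawley rats gave 5 libraries, whose labels carry the same protocol text as the water-load samples and do not say whether these rats were treated. In a separate experiment, CCDs came from 5-week-old water-loaded rats (n = 4) and control rats (n = 4). Both of these groups received the vasopressin agonist DDAVP by minipump at 5 ng/h. Over 4 days the gelled food gave 50 mL of water per day to the water-loaded rats and 25 mL per day to the controls. Collagenase acted for 25 min on cortex, 50 min on outer medulla and 90 min on inner medulla, so kidney zone and digestion time cannot be told apart.

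Carbonic anhydrases catalyse the interconversion of carbon dioxide and water with bicarbonate and protons. In the proximal tubule, protons leave the cell at the lumen, filtered bicarbonate is converted by membrane-bound carbonic anhydrase, and bicarbonate formed in the cell leaves at the blood side. In the collecting duct, intercalated cells secrete protons or bicarbonate, supplied by cytosolic carbonic anhydrase.

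All values are RPKM, which divides reads by transcript length and library size, so levels of different genes are compared per length. Tests used log2(RPKM + 1), and a difference is the first named group minus the second on that scale, with its standard error (SE). Genes count as called when the adjusted p is under 0.05 and, between segments, the difference is at least 1. Tubule libraries held 1438 to 8574 genes at 1 RPKM or more, and their relative depth spanned 13.7-fold among the 93 for which it could be estimated. In 8 libraries of the proximal segments and thin limbs, the only segments screened, marker genes go against the label. S3 replicate 7 had Aqp1, a water channel of the descending limb and proximal tubule, above the proximal phosphate transporter Slc34a1. SDL replicate 1 and LDLOM replicate 1 contained Slc34a1. tAL replicates 1 and 2 had high levels of the endothelial gene Plvap, and tAL replicates 4, 6 and 7 had high Aqp1. Where a call between segments or regions changed without these 8 libraries, both results are given. All other tests are given with them included. Libraries of the other segments were not screened and stayed in every fit without the 8. Among them, OMCD replicate 7 had 286 RPKM of Slc34a1, and DCT replicate 6 had 632 RPKM of the principal cell marker Aqp2. As the samples are pieces of tubule, fewer cells of a type and less RNA per cell cannot be told apart.

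Across the 14 segments, 8 of the 9 genes differed (moderated F test of limma, adjusted p from 2.28e-21 for Car15 to 0.0143 for Car14), where 41.5% of all genes tested did. The gene not called was Car4 (adjusted p = 0.112). Of the 36 other acid-base genes tested, 25 were called. When the 14 segments were ordered by mean level, most neighbours in the order differed by less than their pooled SD: no gap exceeded it for Car2, Car4, Car12, Car14 or Slc4a2, and 1 gap each did for Car15, Slc4a4, Slc4a7 and Slc9a3. In log2 units the gap was 2.92 for Car15 (DCT over S3) and 1.28 for Slc4a4 (LDLIM over CNT). The others lay near the floor, at 0.32 for Slc9a3 (DCT over CCD). For Slc4a7 it lay between LDLOM, with a mean log2 level of 0.004, and S1, at 0.

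**Figure D1:**
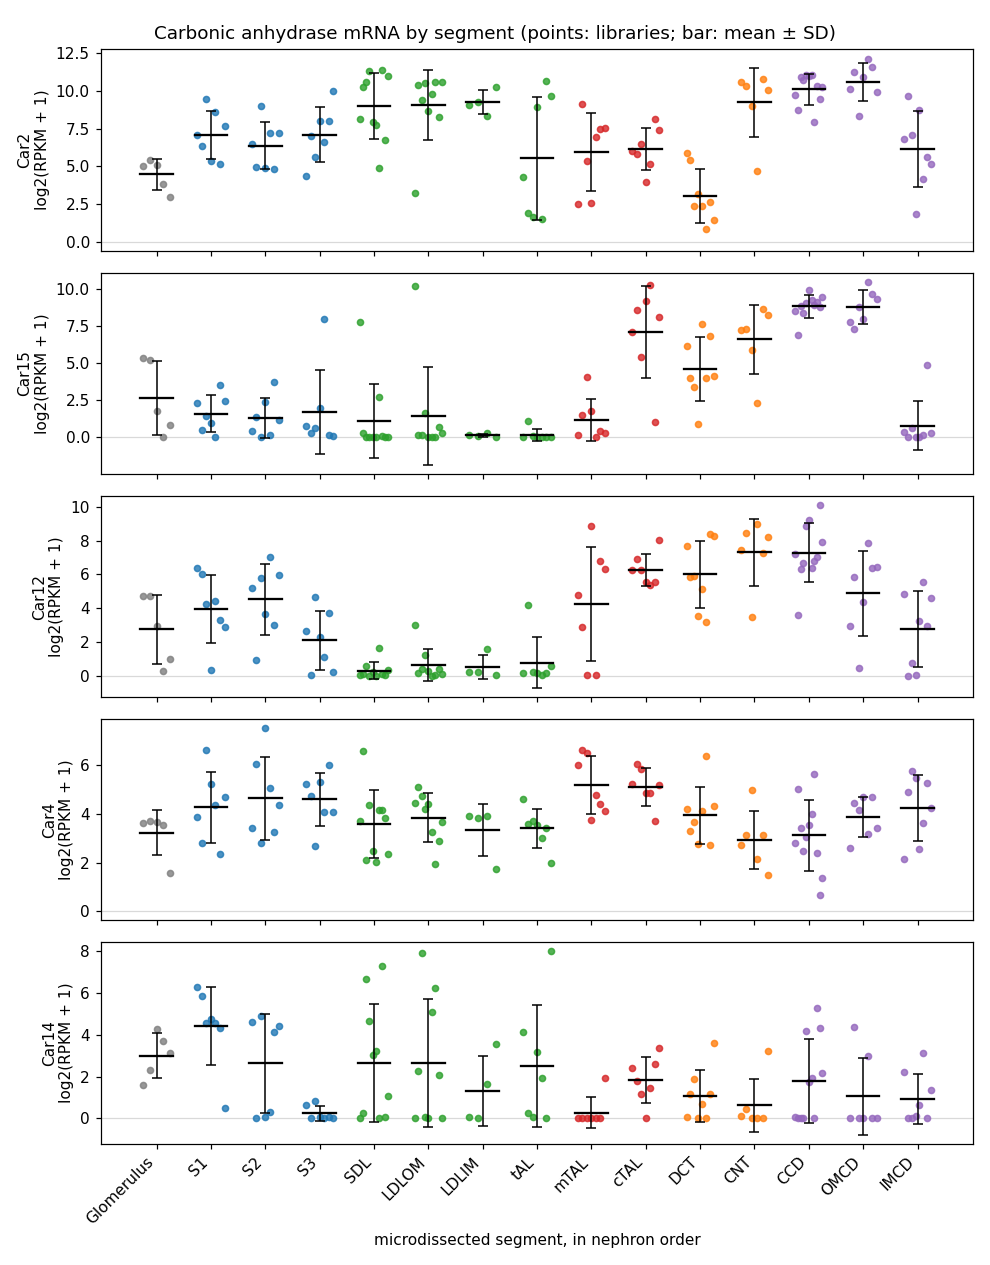
Levels of the 5 carbonic anhydrases as log2(RPKM + 1) in each library of the glomerulus and the 14 segments in nephron order, with mean and SD bars. Car2 was lowest in DCT and high in CNT, CCD and OMCD. Car15 was highest in CCD, OMCD and cTAL, with all CCD libraries between 119.8 and 955.7 RPKM, and Car12 was low in the thin limbs.

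Car2, the cytosolic anhydrase, was the most abundant member, and its highest mean was in OMCD (2034 ± 1415 RPKM, SD, n = 7). The OMCD libraries ranged from 328 to 4489 RPKM with a median of 1949. CCD libraries ranged from 244 to 2154 with a median of 1265. CNT libraries had 1559, 1275, 509, 25.3, 1734 and 1050 RPKM, so CNT replicate 4 lay far below the others. The lowest mean was in DCT, at 15.5 ± 21.6 RPKM (SD, n = 8), with a range of 0.775 to 57.0. CNT and DCT therefore overlapped only through CNT replicate 4. The difference between CNT and DCT was 6.22 ± 1.09 (SE; limma adjusted p = 2.45e-05).

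Beyond OMCD, Car2 was lower in IMCD, where libraries ranged from 2.58 to 823 RPKM with a median of 79.4. The difference between IMCD and OMCD was -4.47 ± 1.05 (SE; adjusted p = 0.00166), with overlapping libraries. The summed level of 6 intercalated cell markers differed at the same steps, at 777 to 2035 RPKM in CNT against 27.8 to 273 RPKM in DCT, and 0.0131 to 119 RPKM in IMCD against 1000 to 2596 RPKM in OMCD. None of the 6 markers was at 0 throughout any of these segments, and their part in the Car2 differences was not tested. Red cells also contain Car2, and the 5 measured erythroid genes summed to at most 7.39 RPKM in CNT, against up to 694 RPKM in DCT.

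In the thin descending limbs Car2 was also abundant. SDL ranged from 29.1 to 2707 RPKM with a median of 743. LDLOM ranged from 8.49 to 1532 with a median of 865, and its lowest library was the one labelled LDLOM replicate 1. LDLIM had 542, 621, 318 and 1226 RPKM. The proximal segments were lower by median, at 131 RPKM in S1, 87.8 RPKM in S2 and 130 RPKM in S3 (n = 7 each). Between LDLOM and S3 the difference was not called with all libraries (1.96, adjusted p = 0.385), and was 3.17 ± 0.926 (SE; adjusted p = 0.0172) without the 8 libraries.

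The tAL libraries fell into separate ranges of Car2. Replicates 1 to 7 had 18.95, 2.77, 2.12, 488, 1.88, 1628 and 800 RPKM. The 3 high libraries are those with high Aqp1, at 493, 4296 and 5273 RPKM of Aqp1 in replicates 4, 6 and 7. The other 4 had 0.163, 2.75, 7.88 and 1.25 RPKM of Aqp1. With all libraries Car2 was not called between tAL and LDLIM (-3.72 ± 1.27, SE; adjusted p = 0.163). Without the 8 libraries, which leaves tAL replicates 3 and 5, the difference was -7.65 ± 1.49 (SE; adjusted p = 0.000352). In the same fit Car2 was lower in mTAL than in SDL (-3.16 ± 0.864, SE; adjusted p = 0.0137) and higher in mTAL than in tAL (4.35 ± 1.37, SE; adjusted p = 0.0458). With all libraries neither was called, at -3.06 for mTAL minus SDL (adjusted p = 0.0602) and 0.41 for mTAL minus tAL (adjusted p = 0.938).

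Car15, a membrane-anchored anhydrase of rodents that has no working counterpart in human, had the widest range of segment means of the 9 genes on the log2(RPKM + 1) scale (8.68). CCD libraries ranged from 119.8 to 955.7 RPKM with a median of 488. OMCD libraries ranged from 159 to 1424 with a median of 445. In IMCD, 3 of 8 libraries were listed at 0 and the highest had 28.5 RPKM, so every IMCD library lay below every OMCD library. The difference between IMCD and OMCD was -7.98 ± 1.05 (SE; adjusted p = 2.29e-09), the largest of any member between neighbouring segments. IMCD replicate 7, the library at 28.5 RPKM, also had the highest sum of intercalated markers in IMCD (119 RPKM). The principal cell markers summed to between 2187 and 17190 RPKM across IMCD. The part of either marker sum in the Car15 values was not tested.

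A second step lay in the thick limb. The cTAL libraries had 138, 386, 42.6, 571, 1241, 1.07 and 270 RPKM of Car15. The mTAL libraries had 0.133, 1.78, 15.6, 2.45, 0, 0.348 and 0.205 RPKM. Only cTAL replicate 6 fell within the mTAL range. The difference between cTAL and mTAL was 5.93 ± 1.08 (SE; adjusted p = 0.000138). The intercalated marker sum was 0.0677 to 353 RPKM in cTAL (median 98.1), against 0.0887 to 118 RPKM in mTAL (median 1.44), and its part in the difference was not tested.

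From S1 to mTAL the Car15 medians were at most 1.67 RPKM. Single libraries stood far above their groups: 254 RPKM in S3 replicate 5, 218 RPKM in SDL replicate 1 and 1149 RPKM in LDLOM replicate 1. The last also had 551 RPKM of the intercalated anion exchanger Slc4a1 and, unlike the other LDLOM libraries, 8.49 RPKM of Car2. Several genes of this library therefore go against its label.

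Car12, a transmembrane anhydrase whose active site faces outward, had its highest mean log2 levels in CNT, CCD, cTAL and DCT. Its CNT libraries had 175, 347, 10.2, 520, 154 and 301 RPKM. CCD ranged from 11.2 to 1113 with a median of 133. OMCD ranged from 0.366 to 233 with a median of 56.1, and in IMCD the highest of 8 libraries had 46.5 RPKM. The proximal segments had medians of 18.4 RPKM in S1, 36.0 RPKM in S2 and 3.91 RPKM in S3. In the thin limbs the medians were 0.0495 RPKM in SDL, 0.224 RPKM in LDLOM, 0.147 RPKM in LDLIM and 0.102 RPKM in tAL.

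At the entry to the thick limb, mTAL libraries had 26.8, 6.26, 0.0395, 461, 0.0128, 111 and 78.0 RPKM of Car12. SDL libraries did not exceed 2.06 RPKM, and tAL libraries did not exceed 16.9 RPKM. Both steps were called, at 3.95 ± 0.943 (SE; adjusted p = 0.00410) for mTAL minus SDL and 3.48 ± 1.02 (SE; adjusted p = 0.0240) for mTAL minus tAL. Replicates 3 and 5 of mTAL remained within the SDL range. The step from tAL was not called without the 8 libraries (4.12 ± 1.53, SE; adjusted p = 0.113), without libraries of fewer than 2500 genes (adjusted p = 0.0590) or with both groups fitted alone (adjusted p = 0.1202). In the table made without polyadenylation-site data neither step was called, at 0.00142 for mTAL minus tAL (adjusted p = 1) and 0.56 for mTAL minus SDL (adjusted p = 0.878).

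Car15 and Car12 were the members with the most similar segment pattern (Pearson r = 0.801 over the 14 segment means, which share libraries). Their promoters are shown for that reason, from 250 bases before to 50 after a RefSeq start in GRCr8. Car15 lies at chr11:96651189-96651488 and Car12 at chr8:76169565-76169864, both on the forward strand. The Car15 window is placed on the RefSeq start of the gene. The RefSeq gene of Car12 starts at 76169723, and its window is placed on a start further downstream. Capitals mark matches to 5 short words, searched on either strand and none overlapping another.
Car15: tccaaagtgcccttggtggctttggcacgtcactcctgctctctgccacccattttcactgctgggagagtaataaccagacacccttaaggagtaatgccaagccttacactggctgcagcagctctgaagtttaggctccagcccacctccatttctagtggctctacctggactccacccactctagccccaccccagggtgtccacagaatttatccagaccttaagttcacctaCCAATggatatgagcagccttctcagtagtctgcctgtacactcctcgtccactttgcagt
Car12: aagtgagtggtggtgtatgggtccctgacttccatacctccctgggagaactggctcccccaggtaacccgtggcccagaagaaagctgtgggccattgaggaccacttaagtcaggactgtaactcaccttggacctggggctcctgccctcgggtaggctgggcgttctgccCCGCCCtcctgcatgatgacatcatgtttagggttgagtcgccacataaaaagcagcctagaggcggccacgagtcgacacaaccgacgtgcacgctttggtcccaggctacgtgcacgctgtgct
The Car15 window held 1 match, the CCAAT box on the forward strand, which is present in 37.5% of all 33469 promoters of this length. The Car12 window held 1 match, the reverse complement of the GC box GGGCGG, which is present in 33.1% of them. Neither window held the TATA box word TATAAA, present in 14.2% of promoters. The same was true of GTTAAT, part of the site of a hepatocyte nuclear factor, which 7.45% of promoters hold. The forkhead word GTAAACA, held by 3.78% of promoters, had no match in these windows either. The GC content was 52.7% for Car15 and 59.0% for Car12, where the median promoter has 51.7%.

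Car4, an anhydrase anchored to the cell surface by a lipid tail, was present in every tubule library of the main table, from 0.605 RPKM in a CCD library to 180 RPKM in an S2 library. Segment means ran from 9.37 ± 10.3 RPKM in CNT (SD, n = 6) to 46.4 ± 36.2 RPKM in mTAL (SD, n = 7). The 7 cTAL libraries had 36.7, 64.4, 55.6, 28.0, 27.4, 12.1 and 34.8 RPKM. No step between neighbouring segments was called. The table made without polyadenylation-site data, in contrast, gave a pattern that differed by region and is given with the comparison of the tables.

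Car14, a transmembrane anhydrase known from proximal tubule and thin descending limb of rodents, was highest in S1 among the proximal segments. S1 libraries had 75.8, 56.8, 22.8, 25.5, 22.4, 18.6 and 0.435 RPKM. S2 libraries had 23.0, 0.0233, 28.9, 0.0608, 0.222, 16.2 and 20.4 RPKM, so 4 were above 16 RPKM and 3 below 0.3 RPKM. S3 libraries did not exceed 0.787 RPKM, and only S1 replicate 7 reached down into that range. The difference between S3 and S1 was -4.16 ± 1.04 (SE; adjusted p = 0.00888). In the table made without polyadenylation-site data it was not called (-2.92, adjusted p = 0.0549). The thin limbs were mixed: 155.5 RPKM in 1 SDL library, 236.5 RPKM in 1 LDLOM library and 249 RPKM in 1 tAL library, beside libraries at or near 0 in each. That tAL library, replicate 7, is among those whose markers go against their labels.

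**Figure D2:**
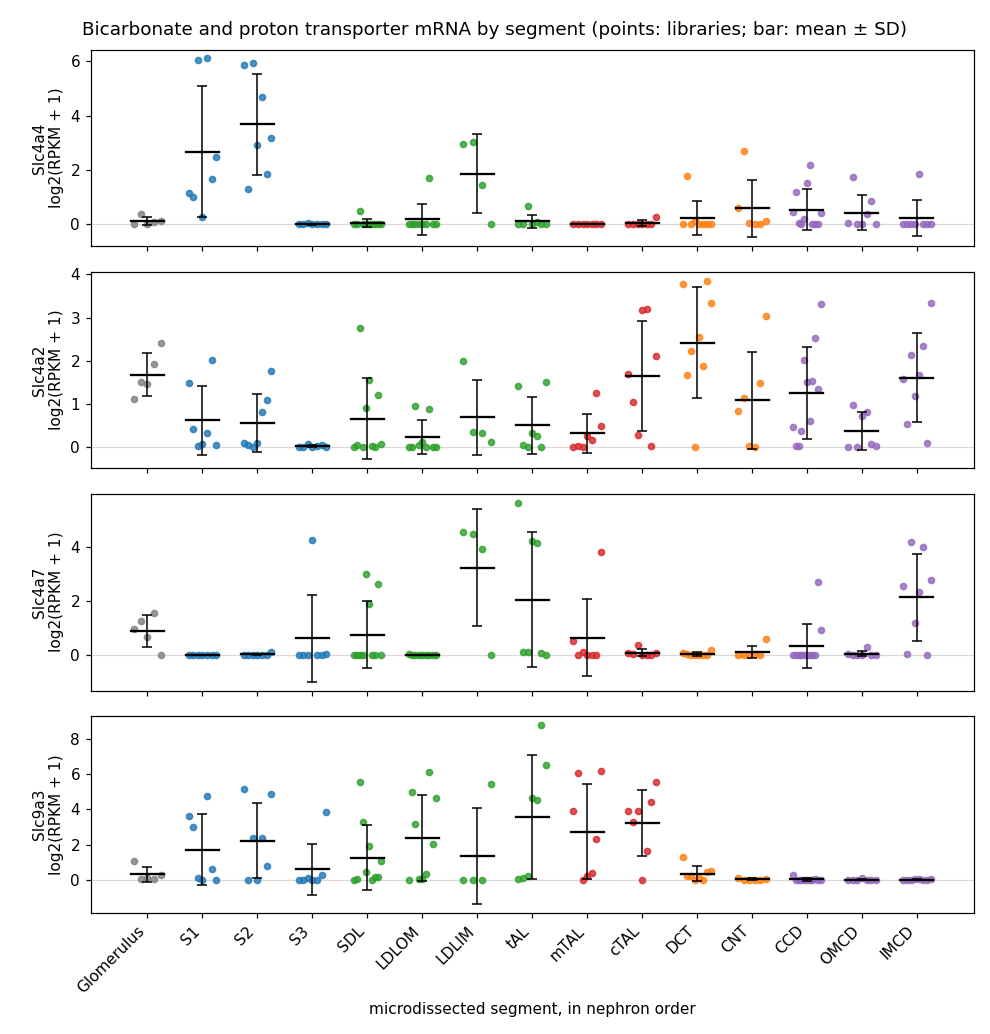
Levels of the 4 transporters as log2(RPKM + 1) in each library of the glomerulus and the 14 segments, with mean and SD bars. Slc4a4 was highest in S1 and S2 and near 0 in S3, Slc4a7 was highest in LDLIM, and Slc9a3 was near 0 from CNT onward.

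Slc4a4, the sodium bicarbonate cotransporter that carries bicarbonate out of proximal cells, was highest in S2 and S1. The S1 libraries had 1.21, 1.01, 64.6, 0.221, 68.0, 2.18 and 4.63 RPKM. The S2 libraries had 57.9, 1.49, 60, 6.52, 24.7, 2.64 and 8.11 RPKM. In S3, 5 of 7 libraries were listed at 0 and the highest had 0.0257 RPKM. Every S3 library therefore lay below every S2 and every S1 library. The S3 minus S2 difference was -3.68 ± 0.525 (SE; adjusted p = 2.42e-07), and S3 minus S1 was -2.67 ± 0.525 (SE; adjusted p = 0.000191). With both groups fitted alone, neither was called (adjusted p = 0.175 for S2 and 0.136 for S1). The 4 macrophage markers moved the same way, with sums of 0 to 1.93 RPKM in S3, against 13.0 to 387 RPKM in S2 and 0.867 to 204 RPKM in S1, and their part in the result was not tested.

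Outside the proximal tubule the highest Slc4a4 levels were in LDLIM, at 6.84, 7.19, 1.76 and 0 RPKM, and in 1 CNT library at 5.51 RPKM. The calls around LDLIM changed with replicate 4, the library at 0. With it, LDLIM minus LDLOM was not called (1.68 ± 0.590, SE; adjusted p = 0.0976). Without it, the difference was 2.3 ± 0.644 (SE; adjusted p = 0.0182), and tAL minus LDLIM was called at -2.39 ± 0.666 (SE; adjusted p = 0.0347). The choice of pseudocount mattered too: at 0.1, LDLIM minus LDLOM was called with replicate 4 included (3.625, limma adjusted p = 0.0442).

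Slc4a7, a sodium bicarbonate cotransporter that does not carry net charge, had its highest segment means in the inner medulla. LDLIM libraries had 22.2, 21.0, 14.0 and 0 RPKM. All 9 LDLOM libraries were below 0.01 RPKM, and the difference between LDLIM and LDLOM was 3.22 ± 0.670 (SE; adjusted p = 0.000944). IMCD libraries had 4.83, 0.0144, 17.2, 1.24, 4.00, 15.0, 0 and 5.76 RPKM. OMCD libraries did not exceed 0.222 RPKM, and IMCD minus OMCD was 2.08 ± 0.577 (SE; adjusted p = 0.0113). In tAL, replicates 1, 4 and 5 had 48.5, 17.3 and 16.5 RPKM and the others less than 0.1 RPKM. Replicates 1 and 4 are among the libraries whose markers go against their labels. All 7 S1 libraries and 6 of 7 S2 libraries were listed at 0, while S3 replicate 4 had 17.8 RPKM. In mTAL, where the gene is also known to act, 1 library had 13.0 RPKM and the others at most 0.439 RPKM. The IMCD call was lost under quantile normalization (0.95, adjusted p = 0.219), with the number of detected genes as a covariate (1.54, adjusted p = 0.0713) and with both groups fitted alone (2.08, adjusted p = 0.0727).

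Slc4a2, the chloride/bicarbonate exchanger AE2, had the lowest mean over tubule libraries of the 9 genes in the main table (1.54 RPKM). Its highest segment was DCT, with 12.8, 2.15, 3.70, 0, 4.84, 2.67, 13.5 and 9.19 RPKM in the 8 libraries. The cTAL ranged from 0.0105 to 8.13 with a median of 2.20, and IMCD ranged from 0.0691 to 9.11 with a median of 2.07. No S3, LDLOM or OMCD library reached 1 RPKM. No single step was called, though the F test across segments was (adjusted p = 0.000312).

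Slc9a3, the apical sodium/proton exchanger NHE3, was found in proximal tubule, thin limbs and thick limb. S1 libraries had 11.1, 6.88, 0.0750, 0, 25.4, 0.504 and 0 RPKM, and S2 libraries had 33.95, 0, 4.20, 0.00178, 4.12, 0.725 and 28.4 RPKM. In S3 the highest library was replicate 7 at 13.3 RPKM and the other 6 did not exceed 0.2003 RPKM. The mTAL libraries had 13.7, 65.0, 0.00744, 0.167, 0.310, 4.04 and 71.0 RPKM. The cTAL libraries had 14.0, 8.49, 13.8, 0, 2.06, 20.15 and 46.3 RPKM. DCT did not exceed 1.48 RPKM, and no CNT, CCD, OMCD or IMCD library exceeded 0.2155 RPKM. The step at DCT, -2.88 ± 0.923 (SE), was not called (adjusted p = 0.165), but it was without the 14 libraries of fewer than 2500 genes (-3.37, adjusted p = 0.0391).

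In the thin limbs Slc9a3 went with single libraries. It was 24.2 RPKM in LDLOM replicate 9, 30.5 in LDLOM replicate 2 and 68.4 in LDLOM replicate 7, and 45.3 in SDL replicate 3. LDLIM replicate 4 had 42.4 RPKM, against at most 0.01045 RPKM in the other 3, and the same library lacked Slc4a4 and Slc4a7. In tAL the values were 0.0411, 0.0796, 0.185, 23.7, 22.3, 436 and 90.8 RPKM for replicates 1 to 7. Of the 4 high tAL libraries, 3 are those with high Aqp1. Without the 8 libraries, among them S3 replicate 7, Slc9a3 was called as higher in LDLOM than in S3 (2.61 ± 0.861, SE; adjusted p = 0.0468). With all libraries it was not (1.77, adjusted p = 0.363).

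Taking the 14 steps in order, no member was called in S2 minus S1, where 0.596% of all genes were. In S3 minus S2, 1 of 9 (Slc4a4) was called and 0.885% of genes. None was called in SDL minus S3 (7.52% of genes) or LDLOM minus S3 (5.25%). Slc4a7 alone was called in LDLIM minus LDLOM (2.71% of genes), and none in tAL minus LDLIM (0.758%). Car12 alone passed in mTAL minus SDL (3.88%) and mTAL minus tAL (6.34%). Car15 alone passed in cTAL minus mTAL (1.03%), and none in DCT minus cTAL (0.849%). Car2 alone passed in CNT minus DCT (2.15%). None passed in CCD minus CNT (0.0722%) or OMCD minus CCD (1.3%). In IMCD minus OMCD, 3 of 9 were called, Car2 and Car15 lower and Slc4a7 higher, where 7.47% of genes were. The 14 steps gave 9 calls in all, and 13 without the 8 libraries. For the fit without them the share of all genes called at each step was not recorded, so the 13 has no background.

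**Figure D3:**
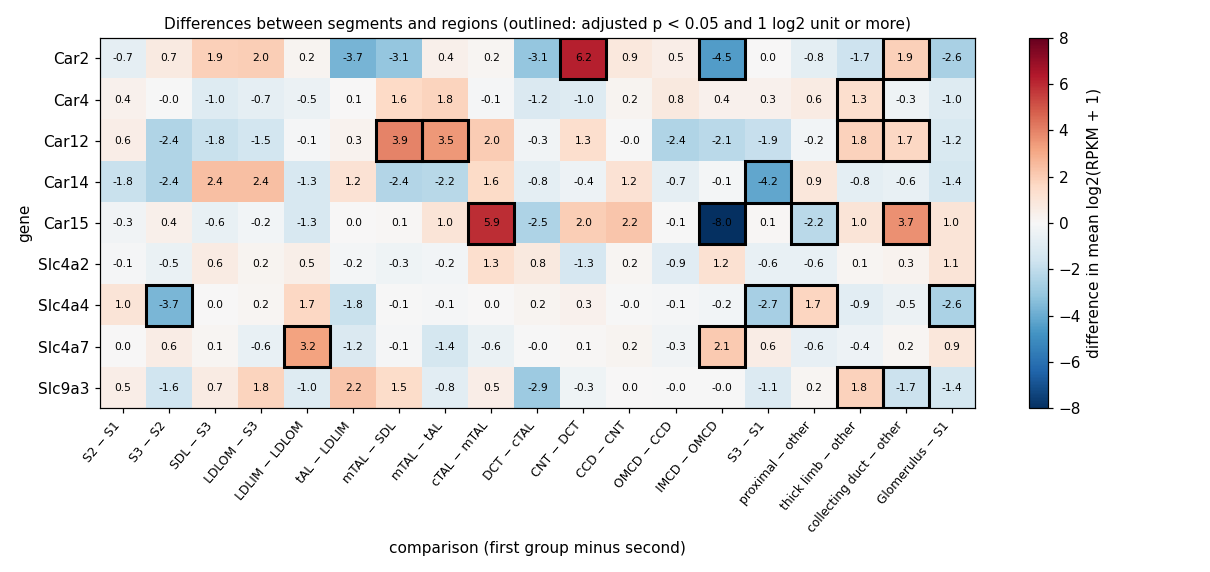
Difference in mean log2(RPKM + 1) of each gene in each comparison of segments, regions and glomerulus, first group minus second, with called differences outlined. The largest values were -7.98 for Car15 in IMCD minus OMCD and 6.22 for Car2 in CNT minus DCT.

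Other acid-base genes, 36 of which were tested, changed at several of these borders. From S3 to the thin limb the glutamine transporter Slc38a3, the scaffold Slc9a3r1 of Slc9a3, Pdzk1, Pck1 (an enzyme linked to ammonia production) and the cytosolic anhydrase Car7 fell in SDL and in LDLOM, by 2.39 (Car7) to 6.86 (Slc38a3) in log2 units, and Slc4a11 rose by 4.36 in SDL and 4.93 in LDLOM. The secreted anhydrase Car6 was lower in S3 than in S2 (-2.83, adjusted p = 0.000204). In S2 minus S1, 1 of 36 passed, Slc38a3 at 4.73 (adjusted p = 0.000390).

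In mTAL, Slc4a11 fell against SDL (-4.64) and against tAL (-5.59). The colonic proton pump Atp12a and the anhydrase-related Car8 were higher in cTAL than in mTAL, by 1.34 and 3.14. In DCT minus cTAL the ammonia transporter Rhcg rose by 5.07 and Atp12a fell by 1.34. In CNT minus DCT 4 of 36 rose and none fell: pendrin (Slc26a4) by 6.20, Slc4a9 by 4.35, Slc4a1 by 4.02 and the ammonia transporter Rhbg by 3.51. In OMCD minus CCD, Slc26a7 rose by 2.99, while Slc26a4 (-4.53) and Slc4a9 (-2.78) fell. In IMCD minus OMCD 6 of 36 fell, namely Slc4a1 (-6.02), Rhcg (-5.52), Rhbg (-4.99), Slc26a4 (-3.06), Slc4a9 (-2.87) and Slc26a7 (-2.86), and Slc4a11 rose by 3.39. Slc4a1 and Slc26a4 are also intercalated cell markers.

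Between the ends of the proximal tubule, S3 minus S1, 2 of 9 members were called, Car14 and Slc4a4, both lower in S3, where 1.88% of all genes were called. The median difference of the 9 members was -0.60, beside -0.02 over all genes. Of the other acid-base genes, Slc38a3 (6.78) and Car7 (1.77) were higher in S3, and Car6 was lower (-3.75).

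Regions were compared as the mean of a region's segment means minus that of all other segments. In the proximal tubule, 2 of 9 members were called, where 22.3% of all genes were. Slc4a4 had a mean level of 2.12 on the log2 scale there, against 0.39 elsewhere (difference 1.73 ± 0.241, SE; adjusted p = 2.55e-09). In the second segment table the difference was 0.63 (adjusted p = 8.1e-05), under the limit of 1, and so not called. Car15 had 1.54 against 3.70 (-2.17 ± 0.498, SE; adjusted p = 0.000347). Among the other acid-base genes 6 of 36 were higher (Car6, Car7, Pck1, Pdzk1, Slc38a3 and Slc9a3r1, by 1.43 to 7.21) and 10 lower, among them Slc4a11 (-2.25) and Rhcg (-2.11).

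In the thick limb 3 of 9 members were called, where 3.98% of all genes were, and all 3 were higher. Car12 had a mean level of 5.26 on the log2 scale, against 3.42 elsewhere (1.85 ± 0.552, SE; adjusted p = 0.0300). Slc9a3 had 2.98 against 1.13 (1.85 ± 0.514, SE; adjusted p = 0.0167). Car4 had 5.13 against 3.81 (1.32 ± 0.409, SE; adjusted p = 0.0396). The Car12 difference turned direction in the second segment table (-0.16, adjusted p = 0.902). Its call was also lost with a pseudocount of 0.1 (adjusted p = 0.0541) and without libraries of fewer than 2500 genes (adjusted p = 0.0529). The call of Car4 was lost with a pseudocount of 0.1 (adjusted p = 0.0966). None of the other acid-base genes was higher and 10 of 36 were lower, among them Sgk1 (-2.83), Rhbg (-2.32) and Rhcg (-2.26).

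In the collecting duct 4 of 9 members were called, where 11.5% of all genes were. Car15 had a mean level of 6.13 on the log2 scale, against 2.45 elsewhere (3.68 ± 0.468, SE; adjusted p = 2.97e-10). Car2 had 8.94 against 7.06 (1.89 ± 0.467, SE; adjusted p = 0.00166), and Car12 had 4.98 against 3.32 (1.65 ± 0.441, SE; adjusted p = 0.00392). The call of Car12 was lost under quantile normalization (0.92, adjusted p = 0.132) and in the second segment table (0.97, adjusted p = 0.127). Slc9a3 was lower, at 0.02 against 1.76 (-1.74 ± 0.411, SE; adjusted p = 0.000870). Of the other acid-base genes 9 of 36 were higher, led by Rhbg (4.89), Rhcg (4.22), Slc4a1 (3.95) and the kinase Sgk1 (3.55), and Pck1 and Pdzk1 (-1.43) were lower.

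In glomeruli against S1, 1 of 9 members was called, where 43.9% of all genes were. Of the 11456 genes tested, 4654 were called higher in glomeruli and 373 lower. Slc4a4 had 0.00721, 0.299, 0, 0.0640 and 0.0901 RPKM in glomeruli, against 0.221 to 68.0 RPKM in S1 (-2.56 ± 0.552, SE; adjusted p = 8.94e-05). Car2 had 30.9, 42.4, 32.6, 13.2 and 6.71 RPKM in glomeruli, against 34.0 to 691 RPKM in S1 (-2.62 ± 1.18, SE; adjusted p = 0.0600). The ranges of Car2 overlapped narrowly. Over all genes the median difference was 1.60, while that of the 9 members was -1.22. Quantile normalization moves the median of all genes to -0.07, and then 5 of 9 members were called, all lower in glomeruli: Slc4a4, Car2 (-4.36), Car14 (-3.65), Car4 (-3.10) and Car12 (-2.99). With the number of detected genes as a covariate 4 were called, Slc4a4, Car2 (-3.37), Car14 (-3.14) and Slc9a3 (-2.74). The share of all genes called was not recorded for these alternative fits, so their member counts have no background to be set against. Of the other acid-base genes 10 of 36 were higher, led by Slc9a3r2 (6.96), Gpr4 (4.45) and Car8 (4.45), and 4 were lower, Car6, Pck1, Pdzk1 and Slc9a3r1.

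In the CCDs of water-loaded and control rats, which have a table of their own, 5 of the 9 genes passed the filter on low values and none was called, where 0.153% of 8490 genes were. At an unadjusted p under 0.05, 1 member (Car15) and 632 of all genes passed in limma. Car15 had 2754, 2321, 3962 and 3160 RPKM under water load, against 3357, 3353, 8065 and 9966 RPKM in controls. Water-loaded replicates 1, 2 and 4 lay below every control, and replicate 3 lay between the controls. Between libraries of the same number, Car15 was lower under water load in 4 of 4 pairs and Car2 higher in 4 of 4. The labels do not state this pairing. The share of all genes that kept the same direction in every pair was not counted, and neither gene was called. The Car15 difference was -0.87 ± 0.403 (SE; adjusted p = 0.668). Car2 had 1042, 1033, 2419 and 1543 RPKM under water load, against 834, 879, 580 and 1384 RPKM in controls (0.69 ± 0.351, SE; adjusted p = 0.715). The groups overlap through control replicate 4. With the replicate number as a block, these adjusted p-values were 0.2503 for Car15 and 0.450 for Car2.

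Car12 had 65.85, 215, 108 and 112 RPKM under water load, against 333, 273, 125 and 48.8 RPKM in controls (adjusted p = 0.898). Slc4a2 had 5.77, 13.2, 3.66 and 3.25 RPKM, against 6.175, 4.52, 2.15 and 2.67 RPKM in controls (adjusted p = 0.870). Car14 was between 0.473 and 4.03 RPKM in both groups. Car4, Slc4a4, Slc4a7 and Slc9a3 were below the filter, with no water-loaded library above 0.0986 RPKM and no control library above 2.07 RPKM. None of the 28 other acid-base genes tested was called. Beside this, intercalated markers summed to 2901 to 3444 RPKM under water load and 2145 to 2851 RPKM in controls, and principal cell markers, Aqp2 among them, to 5994 to 11920 RPKM under water load and 12360 to 20450 RPKM in controls. Neither pair of ranges overlaps. Aqp2 alone had 5333 to 10658 RPKM under water load and 11019 to 18342 RPKM in controls. The principal cell sums were thus mostly the level of this gene and do not give a share of cells. The part of either marker sum in the Car15 and Car2 values was not tested.

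**Figure D4:**
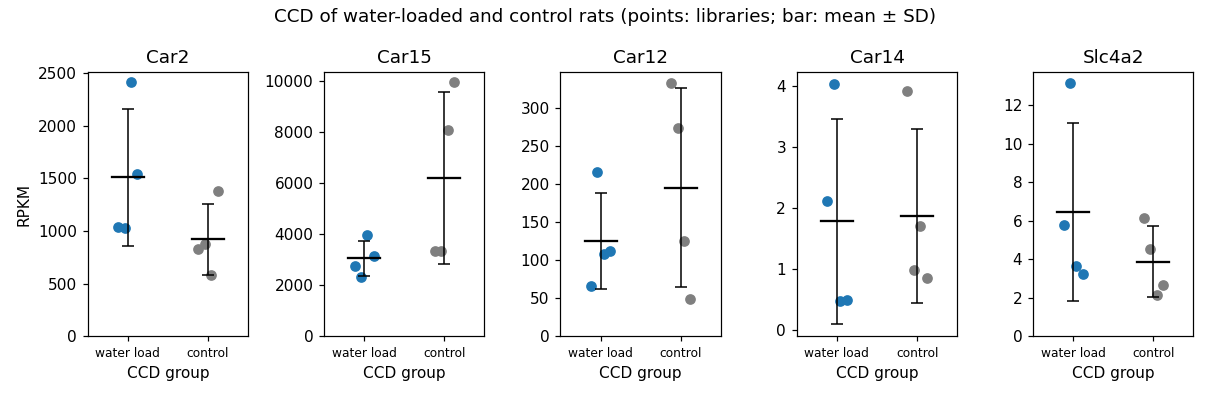
RPKM of the 5 genes tested in CCD libraries of water-loaded and control rats (n = 4 each), with mean and SD bars. Car15 had its highest values in control replicates 3 and 4 (8065 and 9966 RPKM), and no gene was called.

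The authors deposited a second table of the segments, made without polyadenylation-site data, and the members differ in how far the tables agree. Car2 was within 1.1-fold in every tubule library, and Slc4a2 in all 86 libraries above 0. Slc9a3 was within 1.1-fold in 71 of 76. Car15 kept its pattern at a median ratio of 0.379 between the tables with and without these data. Car4, Car12, Car14, Slc4a4 and Slc4a7 mostly had higher values in the table with these data, at median ratios of 3.15 to 13.1 among libraries above 0 in both. In 39 libraries Car4 was above 0 in that table alone, as were Car12 in 51 and Slc4a7 in 31.

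For Car4 the pattern itself changed. Its mean was lower with polyadenylation-site data than without in mTAL (46.4 against 90.0 RPKM) and cTAL (37.0 against 58.0 RPKM). The same held in DCT (20.75 against 33.9 RPKM) and S1 (28.7 against 42.3 RPKM). All other segments had higher means with these data. In the table without these data, S1 libraries ranged from 1.06 to 232 RPKM (median 7.30), S2 from 0.00486 to 58.6 (median 10.1) and S3 from 0 to 0.293. The highest thin limb values were 0.230 RPKM in SDL, 1.19 RPKM in LDLOM, 0 in LDLIM and 0.820 RPKM in tAL. mTAL ranged from 0 to 229 (median 44.4), cTAL from 0.275 to 153 (median 45.7) and DCT from 0 to 146 (median 11.0). Further on, the highest values were 0.387 RPKM in CNT, 6.43 RPKM in CCD, 0.469 RPKM in OMCD and 0.0680 RPKM in IMCD. In that table Car4 was called across the segments (adjusted p = 5.48e-15), higher in mTAL than in SDL (5.10 ± 0.760, SE; adjusted p = 4.84e-07) and in tAL (4.93 ± 0.824, SE; adjusted p = 1.51e-05), and lower in CNT than in DCT (-3.71 ± 0.833, SE; adjusted p = 0.00225), in S3 than in S2 (-3.11 ± 0.824, SE; adjusted p = 0.0368) and in S3 than in S1 (-3.41 ± 0.824, SE; adjusted p = 0.00611). The main table, by contrast, has Car4 at 0.605 to 48.6 RPKM in CCD, and the water-load table at 0 to 2.07 RPKM in CCD. Tables are scaled separately, so these levels are only set side by side.

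**Figure D5:**
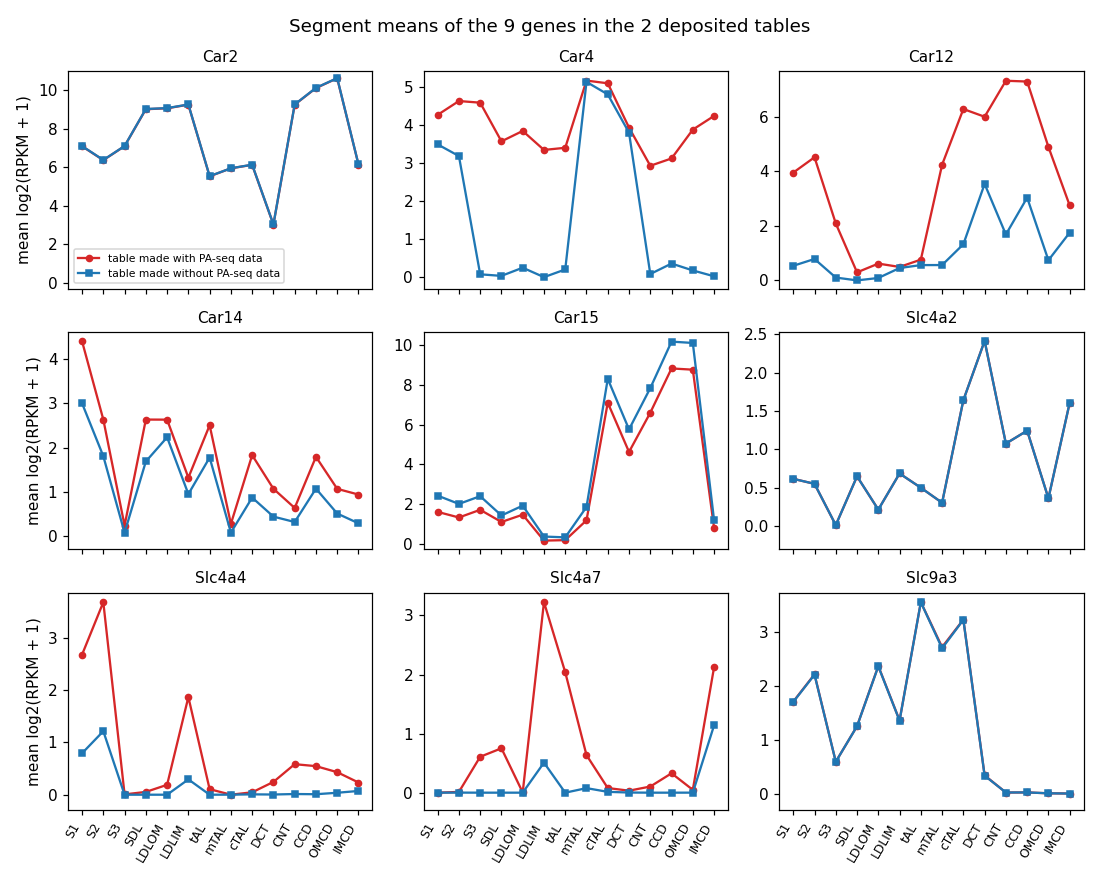
Mean log2(RPKM + 1) of the 9 genes in each of the 14 segments, in the table made with polyadenylation-site (PA-seq) data and in that made without. The lines coincide for Car2, Slc4a2 and Slc9a3, while Car4 in the table without these data is high in S1, S2, mTAL, cTAL and DCT.

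Between the tables the 14 segment means correlated at 0.674 for Slc4a7, 0.716 for Car12 and 0.727 for Car4, and at 0.969 or more for the other members (Pearson r over segment means of the same libraries). Slc4a4 reached 13.6 RPKM in S2 there, against 60 RPKM in the main table, and its S3 minus S2 difference was still called (-1.22 ± 0.287, SE; adjusted p = 0.00958). Its S3 minus S1 difference was not (-0.79, adjusted p = 0.223). Car12 was not called in mTAL against SDL (0.56, adjusted p = 0.878). Its highest mean levels were in DCT, CCD and IMCD there. Slc4a7 did not exceed 0.252 RPKM in any segment but IMCD (up to 33.75 RPKM) and LDLIM (up to 3.09 RPKM), and IMCD minus OMCD was called (1.14 ± 0.274, SE; adjusted p = 0.00236) whereas LDLIM minus LDLOM was not (0.51, adjusted p = 0.441). All 7 tAL libraries were listed at 0 for Slc4a7 there.

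For each member, genes among the 3 whose 14 segment means were most like its own are named by Pearson correlation in the main table. The segment means share libraries, and r is a description. For Car15 they were Atp6v0d2 (0.966), Mir195 (0.959) and Atp6v1b1 (0.951). For Car12 they were RGD1305347 (0.942), Atpif1 (0.936) and Slc44a3 (0.920), and for Slc4a4 Lonrf3 (0.948), L3hypdh (0.942) and MGC125239 (0.923). Slc4a7 was like Xkr6 (0.958) and Tgfa (0.951), and Slc4a2 most like Fam217b (0.934), Mybpc2 (0.931) and Prorsd1 (0.924). Lower values were found for Car2 (Txndc11, 0.848, Snn, 0.838, and Kif23, 0.803), Car14 (Sfxn2, 0.861, Pqlc1, 0.833, and Snx29, 0.795), Slc9a3 (Slc2a13, 0.797, Cldn10, 0.765, and Fli1, 0.733) and Car4 (Nphs1, 0.821, Snrnp35, 0.785, and Hba1, 0.769).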

How the data were processed

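RNA sequencing libraries of dissected rat tubule segments, glomeruli and CCDs were analysed from the RPKM values that the authors deposited per RefSeq transcript. Per the labels' protocols, poly(A) RNA was amplified by a single-cell method. Per the submitters' processing notes, the build was rn5 and the tools included HOMER, SAMtools, STAR 2.3.0-r192 and Trimmomatic 0.32. No source used here says how polyadenylation-site data entered the main table. The files give no counts, so counting error is unknown.

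For symbols with several transcripts the one with the highest mean over tubule libraries was kept. Genes reaching 1 RPKM in 4 or more libraries of a fit were tested on log2(RPKM + 1) by the trended moderated test of limma 3.58.1 (R 4.3.3), two-sided, Benjamini-Hochberg adjusted over all genes, and the test was tried on simulated data. The 14 segments shared 1 fit, joined by glomeruli for that comparison. The 8 water-load libraries were fitted alone. Fold sizes understate changes of low genes. For the segments and glomeruli the labels do not say that replicates come from separate rats, so p-values there measure the spread between libraries. In the water-load experiment the labels number the rats within each group. Members, lists and the choice of tests were made with earlier results of these data known, and the rule naming genes was all members, listed genes that were called and the 3 most similar genes. A few results are not reported here. Plots were drawn with matplotlib 3.10.9, and tables made with pandas 2.3.3 and numpy 2.4.6 in Python 3.11.15.

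Replicate numbers were treated as pairs only in the water-load experiment, where residuals of same-numbered libraries correlated at 0.209 to 0.313 in every pair. The labels give no pairs, and libraries of different numbers were not compared, so these values do not establish pairing. In the table made without polyadenylation-site data the glomerulus columns do not line up with the gene names, so they were left out, and 7 whole-kidney samples were not analysed here. The 8 libraries against their labels were defined after seeing the data, by Slc34a1 of at least 100 RPKM or Plvap of at least 1000 RPKM in a thin limb, Aqp1 of at least 100 RPKM in tAL, or Aqp1 above Slc34a1 in a proximal segment. Promoter sequences are from RefSeq (GRCr8), which held 7 of the 9 genes.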

Additional observations from a re-analysis of the deposited data

Results flagged for a closer look

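Within each gene and group of 4 to 10 libraries, the highest or lowest library was set against the others by the 95% critical value of Dixon's test. Of 117 groups, 32 had such a library. Of the 32 values, 7 lie in the 8 libraries whose markers go against their labels. A chance rate of about 1 in 20 would hold only for normally distributed values. In some of these groups, such as Slc4a4 in LDLOM, all other libraries lay at or near the floor. A single raised library is then flagged almost by construction, so the count of 32 cannot be set against chance.

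Among the anhydrases, Car2 had 8.485 RPKM in LDLOM replicate 1 and 25.29 RPKM in CNT replicate 4, both far below their groups. Car4 was high at 93.86 RPKM in SDL replicate 2 and 81.51 RPKM in DCT replicate 6. It was low at 2.341 RPKM in LDLIM replicate 4 and 1.982 RPKM in glomerulus replicate 5. Car12 was high at 2.063 RPKM in SDL replicate 7, 6.909 RPKM in LDLOM replicate 1, 1.961 RPKM in LDLIM replicate 3 and 16.88 RPKM in tAL replicate 2, and low at 10.2 RPKM in CNT replicate 3. Car14 was low at 0.4346 RPKM in S1 replicate 7 and high at 2.782 RPKM in mTAL replicate 7 and 8.172 RPKM in CNT replicate 6. Car15 was high at 254.2 RPKM in S3 replicate 5, 218.1 RPKM in SDL replicate 1, 1149 RPKM in LDLOM replicate 1, 1.141 RPKM in tAL replicate 2 and 28.49 RPKM in IMCD replicate 7.

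Among the transporters, Slc4a2 was high at 2.954 RPKM in LDLIM replicate 1 and 1.388 RPKM in mTAL replicate 6. Slc4a4 was high at 2.255 RPKM in LDLOM replicate 7, where the other LDLOM libraries were listed at 0. It was also high at 2.435 RPKM in DCT replicate 2, 5.506 RPKM in CNT replicate 2 and 2.64 RPKM in IMCD replicate 5. Slc4a7 was high at 17.81 RPKM in S3 replicate 4 and 13.04 RPKM in mTAL replicate 7, and listed at 0 in LDLIM replicate 4. Slc9a3 was high at 13.3 RPKM in S3 replicate 7, 42.36 RPKM in LDLIM replicate 4, 1.478 RPKM in DCT replicate 1 and 1.106 RPKM in glomerulus replicate 1. LDLIM replicate 4 stood apart for Car4, Slc4a7 and Slc9a3 alike.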

How the results depend on the processing

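For glomerulus minus S1, where 1 member was called, 2 were called with a pseudocount of 0.1, 5 under quantile normalization, 4 with the number of detected genes as a covariate, 2 without libraries of fewer than 2500 genes and 3 with both groups fitted alone. The share of all genes called in a single comparison was not recorded for these settings or for any other alternative setting below. The member counts there therefore have no background to be set against. For S3 minus S1, where 2 were called, 1 was called in the table without polyadenylation-site data (Car4, with Car14 and Slc4a4 both lost) and 1 with both groups fitted alone (Slc4a4 lost). In that table the thick limb difference of Car12 reversed to -0.16, and to -0.12 without the 8 libraries as well; the cause was not tested. Leaving out each of the 4 LDLIM libraries in turn gave 9 to 11 calls between neighbouring segments, 8 across segments and 9 between regions. No other tubule library was left out singly. Leaving out each glomerulus library gave 1 call, and each water-load experiment library 0. Between neighbouring segments, where 9 were called, quantile normalization gave 12, adding Car4 in mTAL minus SDL and mTAL minus tAL, Car2 in DCT minus cTAL and Car12 in IMCD minus OMCD and losing Slc4a7 in IMCD minus OMCD. Between regions, a pseudocount of 0.1 gave 10, adding 3 calls and losing 2. With the replicate number as a block, the counts stayed at 9 between neighbouring segments, 8 across segments, 2 for S3 minus S1, 9 between regions, 1 for glomeruli and 0 under water load. In the segments no comparison had residual correlations over 0.1 in every same-numbered pair, so replicate numbers were not treated as pairs. Single pairs reached 0.723 (S2 and S1). RPKM values give no counts, so low values cannot be told from counting noise.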
